A study of Rattus norvegicus with 8 samples.

Results

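The genes described here are 9 named parts of bone morphogenetic protein (BMP) and activin signalling: the ligand genes Bmp2, Bmp4 and Inhba, the antagonist genes Grem1 and Fst, the receptor gene Bmpr1a and the target genes Id1, Id2 and Id3. They were picked by symbol, with the low Grem1 level in stem cells of the obesogenic diet group in view. A row was found for 8 of the 9 in each of the deposited tables, among 18236 genes in one and 14295 in the other. Bmp2 is not analysed here.

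The cells came from inguinal fat of wild-type Wistar rats kept for 6 months on a high-fat sucrose diet (HFS) or on a control diet (C). Adipose-derived stem cells (ASC), the fibroblast-like precursors of fat cells, were grown in DMEM F12 with 10.0% FBS, and adipocytes (AD) were made from them by a 3-day induction with 10.0 µg/mL insulin, 5.0 µM dexamethasone and 0.5 mM IBMX, a phosphodiesterase inhibitor, and 7 further days with insulin alone. There were 8 RNA sequencing libraries, 2 each of AD HFS, AD C, ASC HFS and ASC C. Nothing in the labels ties the 2 libraries of a group to different rats or cultures, so each p sets a difference against the spread between these samples, which may be technical.

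BMP ligands bind type I and type II receptors at the cell surface, and the activated receptors phosphorylate SMAD proteins that enter the nucleus and switch on target genes, among which Id1, Id2 and Id3 are the classical ones. Id proteins lack a DNA-binding region and hold E proteins and other helix-loop-helix factors away from DNA. Gremlin 1, the product of Grem1, captures BMP2 and BMP4 outside the cell, and in adipose tissue BMP4 is known for directing precursors towards the fat cell lineage.

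The sequences just upstream of 4 of these genes are shown because Grem1 and the Id genes differed in direction between HFS and C stem cells. Each is the window from 250 to 51 bases before the RefSeq gene start on build GRCr8, on the coding strand. The lines are Grem1 at chr3:120978370-120978569 on the minus strand, Id1 at chr3:161671314-161671513 on the plus strand, Id2 at chr6:47471046-47471245 on the minus strand and Id3 at chr5:153656041-153656240 on the plus strand. Capitals mark the SMAD-linked motifs CAGAC (or GTCTG) and GGCGCC and the general promoter motif CCAAT (or ATTGG), each searched on both strands.
Grem1: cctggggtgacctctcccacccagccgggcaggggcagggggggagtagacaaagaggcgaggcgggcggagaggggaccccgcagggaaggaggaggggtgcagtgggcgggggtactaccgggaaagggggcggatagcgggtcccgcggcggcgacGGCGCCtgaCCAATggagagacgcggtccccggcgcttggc
Id1: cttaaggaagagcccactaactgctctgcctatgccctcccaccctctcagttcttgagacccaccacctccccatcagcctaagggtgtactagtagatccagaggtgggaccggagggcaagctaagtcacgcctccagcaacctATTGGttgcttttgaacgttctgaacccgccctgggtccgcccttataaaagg
Id2: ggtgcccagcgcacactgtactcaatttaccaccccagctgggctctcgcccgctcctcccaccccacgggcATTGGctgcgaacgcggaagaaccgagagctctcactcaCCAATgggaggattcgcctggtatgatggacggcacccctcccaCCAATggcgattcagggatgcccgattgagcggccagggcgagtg
Id3: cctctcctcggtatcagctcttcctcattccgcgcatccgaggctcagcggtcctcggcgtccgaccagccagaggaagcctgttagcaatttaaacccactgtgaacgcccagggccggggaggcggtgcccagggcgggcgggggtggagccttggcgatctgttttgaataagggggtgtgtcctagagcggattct

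The Grem1 window held GGCGCC 91 bases before the start and CCAAT 82 bases before it, with no overlap between them. Id1 held 1 ATTGG, Id2 held 1 ATTGG and 2 CCAAT, and Id3 held none of the motifs. Of 33465 rat windows of the same length, 6.56% held GGCGCC, 36.6% held CAGAC or GTCTG and 28.8% held CCAAT or ATTGG. Windows were also at hand for Bmp4, Inhba and Bmpr1a, of which Bmp4 held 1 CAGAC, Inhba held 2 CCAAT and Bmpr1a held no match. These are matches of letters and were not tested as binding sites.

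Recovered read totals lay between 76083827 and 119555051 per AD library and between 992618 and 7290961 per ASC library. ASC HFS replicate 2 was the shallowest, with 10.6% of genes at 0 reads and a floor of 3 reads equal to 3.02 RPM (reads per 1000000 reads of the 14018 genes in both tables) or 10.9 normalized counts (reads divided by the size factor of the library). Intervals and floors cover counting error only. The AD HFS replicates were more alike than the AD C replicates, with a chi-square per gene of 7.2 against 319, where sampling noise alone would give 1. Adipocyte markers summed to 16858 to 20582 RPM in AD and 1719 to 3989 in ASC, so the stage labels matched this list. Mesenchymal progenitor markers other than Col1a1 and Col3a1 summed to 3675 to 6733 RPM in AD and 5988 to 9461 in ASC, and no listed marker of either type was at 0. AD and ASC were normalized in separate tables and sequenced to very different depths. Stage, table and depth therefore cannot be told apart, and levels by stage are given without a test, as RPM.

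**Figure D1:**
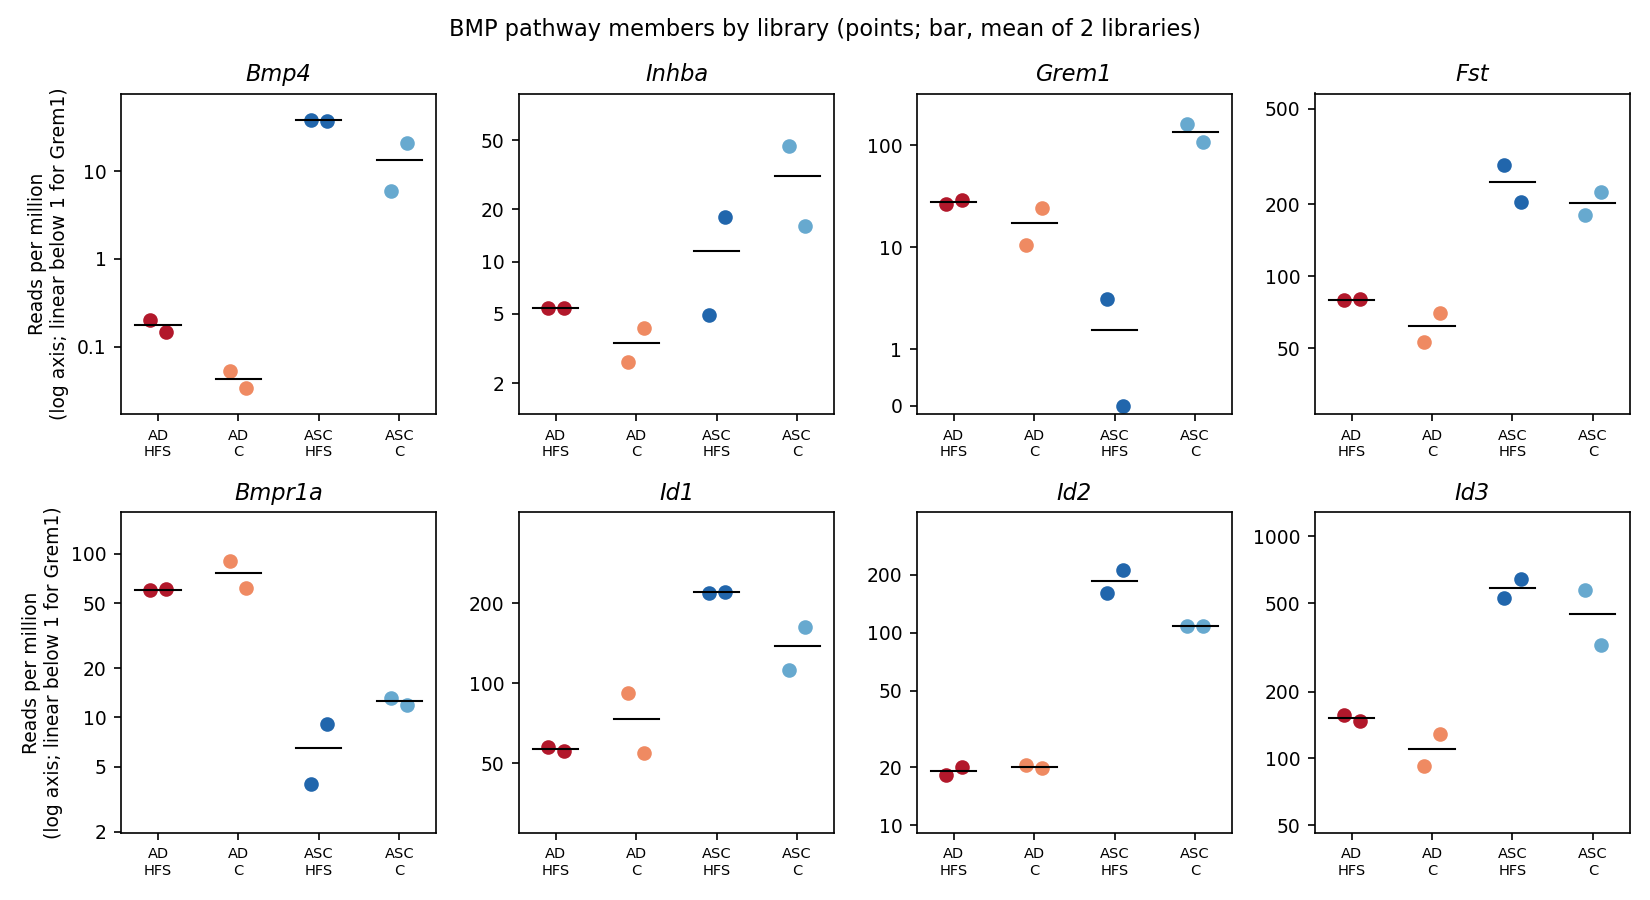
RPM of the 8 measured genes in each library, on a log axis that is linear below 1 for Grem1. Points are libraries and bars are means of 2 libraries. Grem1 in ASC HFS lies at 3.08 and 0 RPM, against 160 and 107 in ASC C, while Bmp4 lies below 1 in all 4 AD libraries.

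Adipocytes had lower levels of most of these genes than stem cells. In the 4 AD libraries against the 4 ASC libraries, Bmp4, Fst, Id1, Id2 and Id3 were lower with no overlap, Bmpr1a was higher with no overlap, and Grem1 and Inhba overlapped. Over all 14018 genes, 19.1% were lower without overlap and 22.4% were higher without overlap, 41.5% together. Within HFS, 2 of the 8 genes (Grem1 and Bmpr1a) were higher in AD and 5 lower without overlap, against 47.9% higher and 32.8% lower of all genes (80.7% together). Within C, Bmpr1a was higher in AD and the other 7 were lower without overlap, against 31.4% and 38.9% of all genes (70.3% together). In bulk RNA, fewer cells of a type and less RNA per cell cannot be told apart.

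Among the ligands, Bmp4, which codes for BMP4, was close to the floor in adipocytes. It had 24 and 12 reads in AD HFS and 4 and 4 reads in AD C, against 225 and 37 reads in ASC HFS and 20 and 154 reads in ASC C. The mean RPM was 0.175 ± 0.0375 in AD HFS and 37.9 ± 0.835 in ASC HFS (SD, n = 2), 217-fold lower in AD. In C it was 0.0432 ± 0.0133 in AD and 13.6 ± 10.7 in ASC, 314-fold lower in AD. The order of group means was AD C, AD HFS, ASC C and ASC HFS, and no neighbouring groups overlapped. The AD level in C was 0.00722 of the ASC level without ASC C replicate 2 and 0.00205 without ASC C replicate 1, against 0.00319 with both libraries.

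Inhba codes for the activin A subunit, whose dimer signals through SMAD2 and SMAD3. It had 5.40 and 5.39 RPM in AD HFS and 2.65 and 4.13 in AD C, against 4.96 and 18.1 in ASC HFS and 46.4 and 16.1 in ASC C. AD libraries were below ASC libraries in C, at 3.39 against 31.2 RPM on average, but overlapped them in HFS. Without ASC HFS replicate 2 the AD over ASC ratio of Inhba in HFS was 1.09 and without ASC HFS replicate 1 it was 0.298, against 0.467 with both. In C the ratio was 0.211 without ASC C replicate 1, against 0.109 with both.

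Grem1 was the member whose order between stages was opposite in the diets. In HFS it had 26.3 and 28.7 RPM in AD and 3.08 and 0 in ASC, a ratio of means of 17.9. In C it had 10.5 and 24.2 RPM in AD and 160 and 107 in ASC, which was 7.69-fold lower in AD. The order of group means was ASC HFS, AD C, AD HFS and ASC C. The neighbours AD C and AD HFS did not overlap by library, but the SD of AD C, 9.69 RPM, was close to the distance between their means of 17.3 and 27.5. Without AD C replicate 2 the AD over ASC ratio in C was 0.0786, against 0.130 with both libraries. Without ASC HFS replicate 2, the library at 0 reads, the ratio in HFS was 8.93.

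Fst codes for follistatin, which traps activins and more weakly some BMPs. It averaged 79.6 RPM in AD HFS and 247 in ASC HFS, and 61.7 in AD C and 203 in ASC C, so it was 3.11-fold lower in AD under HFS and 3.28-fold lower under C. Bmpr1a, a type I receptor for BMP2 and BMP4, ran the other way. It averaged 60.3 ± 0.668 RPM in AD HFS and 6.50 ± 3.63 in ASC HFS, and 76.0 ± 19.9 in AD C and 12.6 ± 0.878 in ASC C (SD, n = 2). Its ratio of AD over ASC was 9.27 in HFS, or 15.3 without ASC HFS replicate 2, and 6.05 in C. The ASC HFS libraries had 3.93 and 9.07 RPM, from 23 and 9 reads, so the HFS ratio was smaller against replicate 2 alone.

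All 3 Id genes were lower in AD than in ASC under both diets. Id2 averaged 19.2 RPM in AD HFS and 186 in ASC HFS, and 20.2 in AD C and 108 in ASC C, which was 9.69-fold lower under HFS and 5.36-fold lower under C. Id3 averaged 152 in AD HFS and 584 in ASC HFS, and 111 in AD C and 449 in ASC C. Id1 averaged 56.5 in AD HFS and 220 in ASC HFS, and 73.3 in AD C and 138 in ASC C, the smallest stage difference of the 3 under C at 1.88-fold.

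The make-up of the Id reads also differed by stage. Id2 held 7.84% and 9.01% of the reads of the 3 genes in AD HFS and 9.98% and 9.79% in AD C, against 17.7% and 19.7% in ASC HFS and 13.7% and 18.1% in ASC C. Every AD library was thus below every ASC library for Id2. The Wilson 95% intervals of the nearest libraries were 9.52 to 10.5% in AD C replicate 1 and 12.4 to 15.0% in ASC C replicate 1. They did not meet, but neither did those of ASC C replicates 1 and 2, the latter at 17.0 to 19.3%. These intervals leave out the spread between libraries, so nothing about stage is read from them. Id3 held the largest share of these reads in all 8 libraries, from 45.2% to 72.2%, although reads were not corrected for gene length. AD C replicate 1 stood apart, with Id1 at 44.9% and Id3 at 45.2%, whereas AD C replicate 2 had 26.9% and 63.3%.

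**Figure D2:**
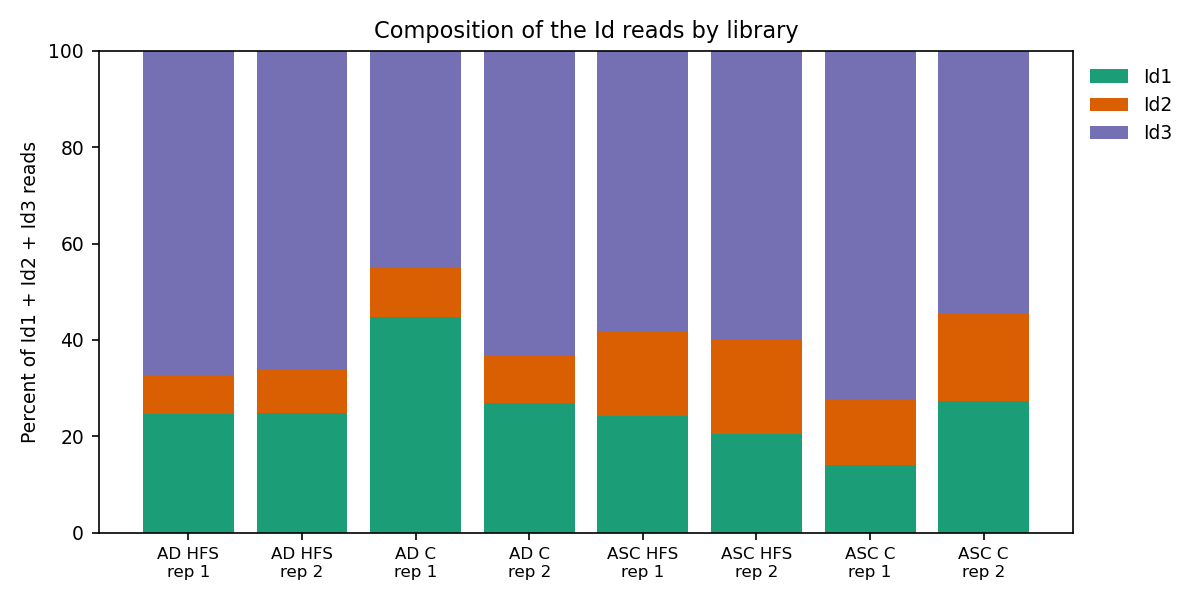
Share of the summed Id1, Id2 and Id3 reads that each gene took, in percent, in each of the 8 libraries. Id2 lies between 7.84% and 9.98% in the AD libraries and between 13.7% and 19.7% in the ASC libraries.

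Between diets in stem cells, Grem1 and Bmpr1a were lower in HFS and Bmp4, Id1 and Id2 were higher, without overlap as normalized counts and as RPM. Of all genes, 61% did not overlap as normalized counts, while as RPM 23.5% were higher and 39.0% lower in HFS without overlap. The ASC values of the members had a part in the choice of the genes and are a description without a test. The test used for other genes was limma-trend on the log2 of the deposited values over all genes of a table, with a call at a Benjamini-Hochberg adjusted p under 0.05. It called 3 of the 8 genes (Bmp4, Id2 and Grem1) and 19.1% of all genes in ASC, and nothing is read from that count. Limma-voom on recovered reads called 5 of the 8 and 22.3% of all genes. The count ratio passed 2-fold for 3 of the 8 (Bmp4, Grem1 and Inhba) and for 40.7% of all genes. No gene at all was called by limma-trend when any 1 of the 4 ASC libraries was left out.

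Grem1 had 18 and 0 reads in ASC HFS against 534 and 779 reads in ASC C. As size-factor normalized counts these were 11.2 (95% Poisson interval 6.65 to 17.7) and 0 (upper bound 13.4) in HFS and 495 and 349 in C. The means were 5.61 ± 7.94 in HFS and 422 ± 103 in C (SD, n = 2). The ratio of means was 75.2-fold lower in HFS, and 38.2-fold lower with the library at 0 set to its floor of 3 reads. As HFS over C, the ratio was 0.0133 with all libraries, 0.0266 without ASC HFS replicate 2 and 0 without ASC HFS replicate 1. Both HFS libraries lay well below both C libraries, and 1 of them was under its floor.

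Bmp4, the ligand that Grem1 captures, ran opposite to it in ASC. It had 140 and 134 normalized counts in HFS and 18.5 and 69.0 in C, a ratio of 3.13. The C libraries were unlike each other, and the ratio was 7.41 without ASC C replicate 2 and 1.99 without ASC C replicate 1. In reads, Bmp4 per Grem1 was 12.5 in ASC HFS replicate 1 and 12.3 in ASC HFS replicate 2 with Grem1 at its floor, against 0.0375 and 0.198 in ASC C. In adipocytes the same quotient was 0.00764 and 0.00516 in HFS and 0.00502 and 0.00140 in C, below 1 in every library.

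The Id genes had higher means in ASC HFS. As normalized counts none of the 3 overlapped between diets, but as RPM Id3 did, with 525 and 643 in HFS and 574 and 324 in C. Id1 had 800 and 794 normalized counts in HFS and 346 and 534 in C, a ratio of 1.81. Id2 had 583 and 762 in HFS and 336 and 352 in C, a ratio of 1.95. After all ASC libraries were thinned to the shallowest it was 1.50, but there reads were scaled to library totals and not by size factors. As RPM without thinning the Id2 means were 186 in HFS and 108 in C, so the change of scale has a part in the lower ratio. Id3 had 1915 and 2314 in HFS and 1775 and 1059 in C, a ratio of 1.49, with the closest HFS and C libraries near each other.

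The remaining members differed less clearly in ASC. Fst had 1058 and 736 normalized counts in HFS and 559 and 733 in C, with HFS replicate 2 and C replicate 2 almost level. Inhba had 18.1 and 65.3 in HFS and 144 and 52.5 in C, so the diets overlapped, and its ratio of 0.425 was 0.185 without ASC HFS replicate 2. Leaving out ASC HFS replicate 1 or ASC C replicate 1 instead made the diets more alike for Inhba. Bmpr1a rested on 23 and 9 reads in HFS and 44 and 87 reads in C, or 14.3 and 32.6 normalized counts against 40.8 and 39.0. Its ratio was 0.589, and 0.360 without ASC HFS replicate 2, the HFS library nearer to C. The 95% Poisson interval of that library, 14.9 to 62.0, held both C values. As normalized counts 5 of the 8 genes were higher and 2 lower in HFS without overlap in ASC, where 28.5% of all genes were higher, 32.5% lower and 61% either without overlap. As RPM only 3 were higher and 2 lower, since Fst, with 290 and 205 in HFS and 181 and 224 in C, and Id3 then overlapped as Inhba did. Of all genes in ASC, 23.5% were higher and 39.0% lower in HFS without overlap as RPM.

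**Figure D3:**
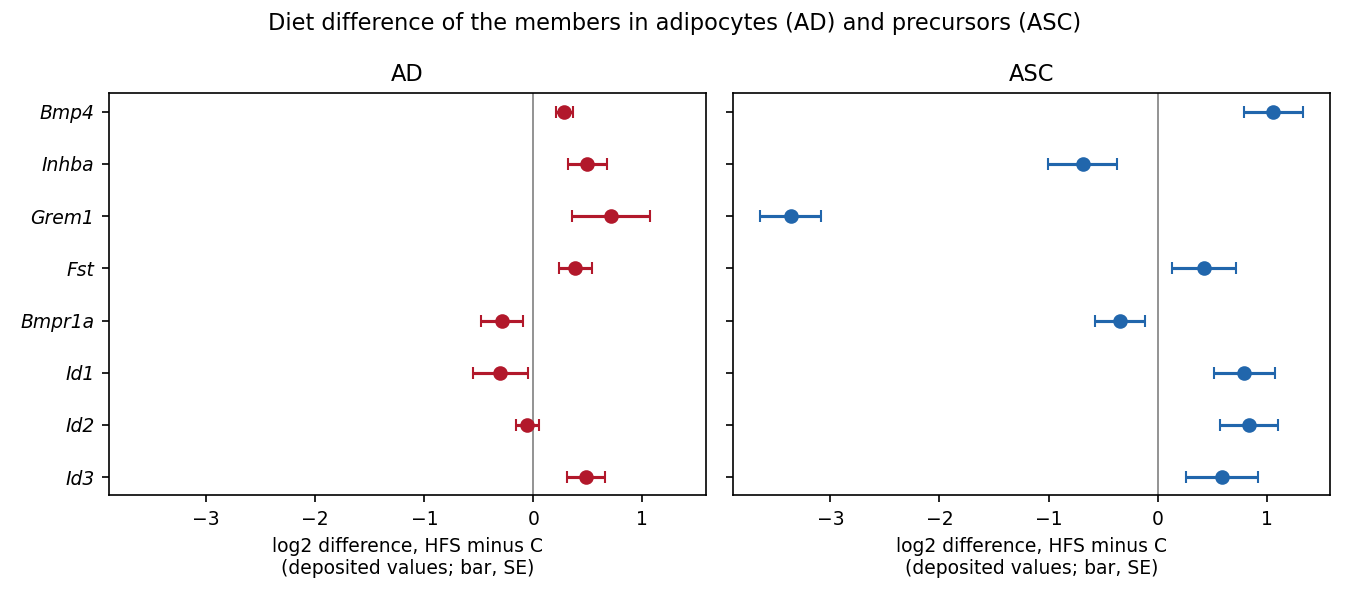
Log2 difference of the deposited values, HFS minus C, with its standard error from limma-trend, for the 8 genes in AD and in ASC. Grem1 lies at 0.71 in AD and at -3.37 in ASC.

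In adipocytes none of the 8 genes passed the test between diets. The count was 0 of 8 with limma-trend and with limma-voom on recovered reads, and 3 of 8 had an unadjusted p under 0.05. Of all genes in AD, 1.34% were called by limma-trend (1.31% higher and 0.0329% lower in HFS), 0.823% by limma-voom, and 13.9% had an unadjusted p under 0.05. Grem1 had 2560 and 2779 normalized counts in HFS and 1009 and 2323 in C, a log2 difference of 0.71 ± 0.36 (SE) on the deposited scale with a limma-trend adjusted p of 0.471. Both HFS libraries were above both C libraries, and the count ratio of 1.60 was 2.65 without AD C replicate 2 and 1.15 without AD C replicate 1.

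Bmp4 had the smallest p of the members in AD, with 19.6 and 14.4 normalized counts in HFS and 5.06 and 3.25 in C (count ratio 4.08, limma-trend adjusted p = 0.224). It rested on 24 and 12 reads in HFS and 4 and 4 in C, in libraries of at least 76083827 reads. Inhba had 525 and 523 normalized counts in HFS and 254 and 397 in C (limma-trend adjusted p = 0.333). Id3 had 15281 and 14276 in HFS and 8898 and 12381 in C (limma-trend adjusted p = 0.336), and Fst had 7696 and 7763 in HFS and 5090 and 6767 in C (limma-trend adjusted p = 0.378). For these 4 genes, as for Grem1, the HFS libraries lay above the C libraries.

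Id1 and Bmpr1a were lower on average in AD HFS, and AD C replicate 1 decided both values. Id1 had 5600 and 5372 normalized counts in HFS and 8838 and 5252 in C, and its count ratio of 0.779 was 1.04 without AD C replicate 1. Bmpr1a had 5816 and 5889 in HFS and 8665 and 5948 in C, and its count ratio of 0.801 was 0.984 without that library. Id2 was nearly level, at 1778 and 1945 in HFS and 1966 and 1914 in C (limma-trend adjusted p = 0.861). Over the 8 genes, 5 were higher and 1 lower in HFS without overlap, while 24.2% of all genes in AD were higher, 23.5% lower and 47.7% either without overlap. The count ratio passed 2-fold for Bmp4 alone of the 8 genes, and for 12.2% of all genes.

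The AD counts of calls depended on the C pair. Without AD C replicate 1 limma-trend called 5 members and 7106 genes in all, and without AD C replicate 2 it called 7 members and 9830 genes in all. In those fits the spread came from the AD HFS pair alone, and the lone C library was assumed to vary like it.

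The rest of the pathway was followed through 95 other genes, listed by role, of which 80 were measured in AD and 71 in ASC. In ASC, 16 of 71 rose and 2 fell in HFS by limma-trend, or 25.4%, where 9.41% of all genes rose and 9.7% fell. None was called when any 1 ASC library was left out with limma-trend, while limma-voom then called between 9 and 24 of them and between 7.60% and 25.5% of all genes. In AD, 0 of 80 were called by limma-trend and by limma-voom, and 10 had an unadjusted p under 0.05. Without AD C replicate 1 or 2 limma-trend called 37 or 54 of the 80, and 39.0% or 53.9% of all genes, under the same assumption about the lone C library.

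Among the 9 other ligand genes measured in ASC, 1 rose and 8 were not called, with a median log2 difference of -0.25 against -0.04 over all genes. The gene that rose was Bmp7, whose product is a BMP linked to brown fat formation. It had 56.7 and 50.8 normalized counts in HFS and 3.71 and 4.03 in C, 13.9-fold higher in HFS (limma-trend adjusted p = 0.00206). The C values rested on few reads, with floors of 2.78 and 1.34 normalized counts in those libraries, so the size of the fold is uncertain.

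Of 16 other antagonist and co-receptor genes in ASC, 2 rose, 1 fell and 13 were not called, with a median log2 difference of 0.10. Eng, coding for the co-receptor endoglin of endothelial and mesenchymal cells, had 1885 and 1418 normalized counts in HFS and 518 and 978 in C (ratio 2.21, limma-trend adjusted p = 0.0307). Chrdl1, coding for a chordin-like BMP antagonist, had 110 and 131 in HFS and 46.3 and 62.8 in C (ratio 2.20, limma-trend adjusted p = 0.0457). The gene that fell was Chrdl2, another chordin-like antagonist, with 0 and 0 in HFS and 7.41 and 12.1 in C (limma-trend adjusted p = 0.0340). It is named after its values were seen, and its counts lay near the floor of 10.9 in ASC HFS replicate 2. None of the 9 other receptor genes was called in ASC by limma-trend, and 1 had an unadjusted p under 0.05. That gene was Tgfbr1, the type I receptor for TGF-beta, with 152 and 228 in HFS and 106 and 108 in C (limma-trend adjusted p = 0.113).

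The SMAD genes and their regulators had the highest share of calls among the pathway lists in ASC. Of 14 measured, 8 rose (57.1%) and none fell by limma-trend, with a median log2 difference of 0.83 against -0.04 over all genes. Smad6 and Smad7 code for the inhibitory SMADs that BMP and TGF-beta signals induce as feedback. Smad6 had 265 and 500 normalized counts in HFS and 101 and 76.2 in C, 4.32-fold higher (limma-trend adjusted p = 0.00258). Smad7 had 333 and 667 in HFS and 126 and 208 in C, 2.99-fold higher (limma-trend adjusted p = 0.0137). Skil, coding for the SMAD co-repressor SnoN, had 643 and 939 in HFS and 166 and 312 in C, 3.31-fold higher (limma-trend adjusted p = 0.00425). The other 5 that rose were Smad3, an activin and TGF-beta signal carrier, Ppm1a, a SMAD phosphatase, the ubiquitin ligase genes Smurf1 and Smurf2, and Zeb2, a SMAD-binding repressor. Their count ratios ran from 1.96 for Smurf2 to 3.88 for Smad3.

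Other BMP target genes in ASC numbered 10, of which 5 rose and none fell by limma-trend, with a median log2 difference of 0.31. Id4, the fourth Id gene, had 231 and 352 normalized counts in HFS and 74.1 and 90.6 in C, 3.54-fold higher (limma-trend adjusted p = 0.00360). Noct, which codes for the circadian phosphatase nocturnin, had 426 and 482 in HFS and 65.8 and 143 in C, 4.35-fold higher (limma-trend adjusted p = 0.00120). Hes1, a helix-loop-helix repressor better known as a Notch target, had 123 and 214 in HFS and 44.5 and 84.7 in C, 2.61-fold higher (limma-trend adjusted p = 0.0314). The transcription factor genes Tbx3 and Gata2 rose as well, with ratios of 2.62 and 3.32. Another 4 (Gata6, Dlx3, Atoh8 and Unc5b) were lower in HFS without overlap but not called, with ratios of 0.416, 0.291, 0.561 and 0.627 and limma-trend adjusted p from 0.0753 to 0.342. Of these, Dlx3 lay under the floor in both HFS libraries, at 0.624 and 3.63 normalized counts against 8.34 and 6.28 in C.

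Of the 3 E protein genes, whose products Id proteins bind, Tcf3 fell in ASC HFS and the other 2 were not called. Tcf3 had 125 and 87.0 normalized counts in HFS and 359 and 236 in C, 2.80-fold lower (limma-trend adjusted p = 0.0104). Of 10 genes linked to the commitment of precursors to the fat lineage, 0 were called in ASC by limma-trend and 3 had an unadjusted p under 0.05, as did 33.3% of all genes. The smallest p was that of Cebpb, an early adipogenic factor, with 4782 and 8235 in HFS and 2773 and 3788 in C (limma-trend adjusted p = 0.101).

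**Figure D4:**
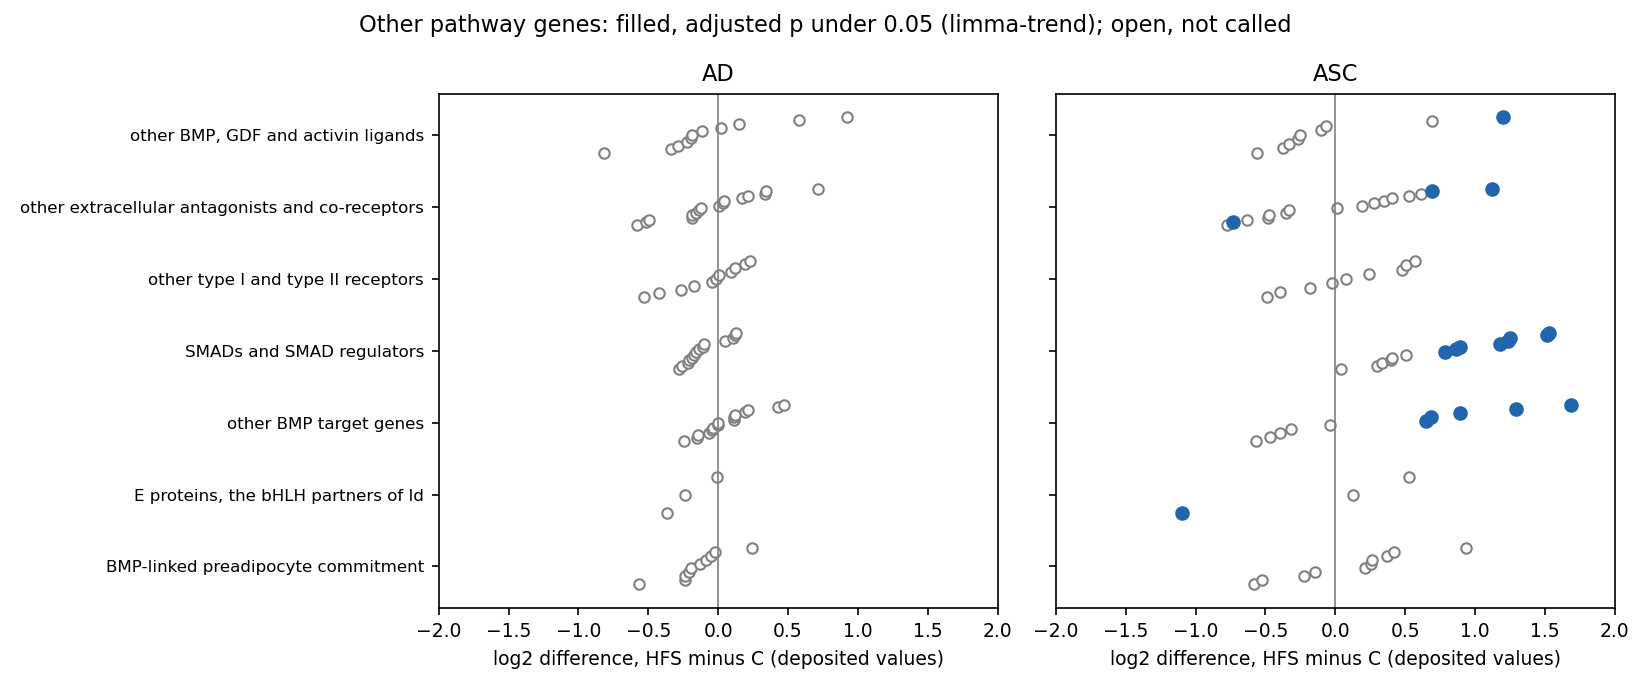
Log2 difference of the deposited values, HFS minus C, for every measured gene of each pathway list in AD and in ASC, with genes called by limma-trend marked. The 8 called SMAD genes and regulators all lie above 0 in ASC, and no gene is called in AD.

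In AD the lists held the following smallest p-values by limma-trend. Gdf10, coding for a divergent member of the BMP family, had 223 and 210 normalized counts in HFS and 558 and 469 in C, a ratio of 0.422 (limma-trend adjusted p = 0.0788). Dlx5, a BMP-responsive homeobox gene, had 82.3 and 78.9 in HFS and 22.8 and 36.5 in C, a ratio of 2.72 (limma-trend adjusted p = 0.154). Nbl1, a secreted BMP antagonist gene of the Dan family, had 13887 and 13282 in HFS and 21814 and 17461 in C (limma-trend adjusted p = 0.206). Ebf2, a brown fat precursor factor, had a ratio of 0.625 (limma-trend adjusted p = 0.269), and Tgfbr3, Smad3 and Tcf3 had ratios of 0.736, 0.810 and 0.841. The groups did not overlap for any of these genes, nor for 47.7% of all genes in AD, and the genes named here were picked for a small p.

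Markers of other cell types moved with the same contrast. In ASC, 8 of 11 endothelial markers and 8 of 12 macrophage markers rose and none fell by limma-trend. Endothelial markers summed to 1365 to 1398 RPM in ASC HFS and 328 to 692 in ASC C, and macrophage markers to 2392 to 2537 in ASC HFS and 634 to 758 in ASC C. Immediate early genes, which rise within minutes of stress or serum, rose for 9 of 10 and summed to 2803 to 3487 in ASC HFS and 922 to 1310 in ASC C. Epithelial markers rose for 6 of 7 and summed to 255 to 265 in ASC HFS and 42.2 to 66.4 in ASC C. No gene of these 4 lists was at 0 in an ASC library, and endothelial cells are known to express Eng, Smad6, Smad7, Id1 and Id3.

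Adipocyte markers rose for 5 of 9 in ASC and overlapped between diets in their summed level, at 2931 to 3658 RPM in HFS and 1719 to 3989 in C. Mesenchymal progenitor markers rose for 3 and fell for 3 of 11, and their sum ran in opposite directions for collagens and the rest. Col1a1 and Col3a1, neither of which was called, came to 38780 to 41331 RPM in ASC HFS and 16287 to 20919 in ASC C. The other 9 markers came to 5988 to 6159 in ASC HFS and 8162 to 9461 in ASC C. Dcn, which was not called, made up 3520 to 4208 RPM of that sum in HFS and 5904 to 6502 in C. Pdgfra, Thy1 and Lum fell 3.65-fold, 4.87-fold and 4.79-fold by limma-trend, while Pi16, Cd34 and Dpp4 rose 6.64-fold, 4.93-fold and 4.91-fold. Smooth muscle and pericyte markers rose for 2 and fell for 2 of 8, and summed to 192 to 280 in ASC HFS and 443 to 527 in ASC C, with Cnn1 at 0 in ASC HFS replicate 2. In AD, 7 of 12 macrophage markers rose, summing to 2553 to 2558 RPM in HFS and 286 to 464 in C, while 1 of 11 endothelial markers (Tie1) rose and 9 of 11 were higher in HFS without overlap. Egfl7 made up 376 to 383 RPM of the endothelial sum in AD HFS and 309 to 432 in AD C, and the other 10 markers came to 36.7 to 39.0 in AD HFS and 13.0 to 17.7 in AD C. The part of these markers in the values of the BMP genes was not tested.

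Other pathway genes were compared by stage in the same way. Of the 69 measured in both tables, 13 (18.8%) had all AD libraries above all ASC libraries, 18 (26.1%) had them below, and 38 overlapped. The 44.9% without overlap were near the 41.5% of all genes, of which 22.4% were above and 19.1% below. Those below included Id4, Smad6, Smad7, Skil, Eng and the decoy receptor gene Bambi, and those above included Nog, which codes for the BMP antagonist noggin, and the type II receptor gene Bmpr2. Endothelial markers were below in 10 of 11 and above in 1 of 11, and immediate early genes were below in 7 of 10. Their part in the stage values was not tested.

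The genes whose profile over the 8 libraries was most like that of Grem1 were Epb41l3, Spc24, Cdk1, Ccnb1 and Plod2. Likeness was the root mean square distance of centred log2(RPM + 0.1) over 11233 genes, and it ran from 0.674 for Epb41l3 to 0.906 for Plod2, against a median of 3.10. Cdk1, the kinase that drives entry into mitosis, had 10.9 and 10.1 RPM in AD HFS and 3.53 and 6.00 in AD C, and 3.59 and 0 in ASC HFS and 57.8 and 35.3 in ASC C. Epb41l3, a membrane skeleton gene, had 12.8 and 12.4 in AD HFS and 7.77 and 16.1 in AD C, and 3.76 and 0 in ASC HFS and 50.6 and 34.4 in ASC C. All 5 were at 0 reads in ASC HFS replicate 2, as Grem1 was, and the 0 in that shallow library weighs in the distance.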

How the data were processed

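RNA was sequenced from 8 libraries, 2 per group. Per the submitters' processing notes, FastQC, STAR, featureCounts and DESeq2 were used with the builds mRatBN7.2 and rn7; versions, settings and the strand of counting are not given in the sources used here, so reads from antisense partners cannot be told apart. The molecule is labelled polyA RNA although an rRNA depletion kit is named. The deposited values are a signal, made by the authors within each table, whose form (the base 2 antilog of counts after size-factor scaling and variance stabilization) was inferred from the values. Their lowest value, 107 in AD and 34.7 in ASC, stands for 0 reads. Inverting that form gave whole reads for 100% of values (tolerance 1e-06). From these reads came normalized counts, ratios of counts, reads scaled to a common total (RPM) and depth. Log2 differences on the deposited scale understate changes of genes with few reads.

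Diets were compared within a table by limma-trend on log2(value + 1), two-sided (R 4.3.3, limma 3.58.1), with Benjamini-Hochberg adjustment over all genes. A minimum mean value of 10 removed no gene. The fits were also run on simulated data, whose outcome is not reported here, and nothing is read from that run. Shares have Wilson and counts exact Poisson 95% intervals. Python 3.11.15, pandas 2.3.3, numpy 2.4.6, scipy 1.17.1 and matplotlib 3.10.9 did the rest.

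Members and lists were chosen with earlier results of these data known. From each pathway list and table the text names up to 3 called genes per direction with the largest log2 difference and a mean of at least 20 normalized counts, or the smallest p where none was called, plus the 5 genes most like Grem1. Further genes of the SMAD, target and marker lists, Chrdl2 and the stage examples are named after their values were seen. Replicate numbers were not taken as pairs. Promoter windows came from RefSeq on GRCr8, with entries for 7 of the 9 genes. Alternatives were other pseudocounts, filters and scalings, robust moderation, a replicate block, limma-voom, thinning and leaving out each library.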

Additional observations from a re-analysis of the deposited data

Results flagged for a closer look

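The mean of Grem1 differed between diets in opposite directions at the 2 stages: the ratio of normalized counts of HFS over C was 1.60 in AD and 0.0133 in ASC, with every HFS library above every C library in AD and below every C library in ASC. Of all genes, 24.2% were higher in HFS without overlap in AD and 32.5% were lower in ASC, each stage taken alone. The share of genes that did both was not counted. The AD difference was not called (limma-trend adjusted p = 0.471), and its C libraries were far apart, at 1009 and 2323 normalized counts against 2560 and 2779 in HFS. Seen by stage, the ratio of RPM of AD over ASC was 17.9 in HFS and 0.130 in C, again with no overlap within a diet and opposite directions. Neither difference between the contrasts was tested, because the ASC contrast had a part in the choice of the genes and the tables were normalized separately.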

How the results depend on the processing

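Among the members, no alternative reversed a direction that was called. Directions of single pathway genes were not compared across the alternatives. Leaving out 1 library at a time gave 0 to 7 called members and 0 to 54 called pathway genes in AD, and 0 called members and 0 called pathway genes in ASC, where limma-trend then called 0 genes in all, with 4538 at an unadjusted p under 0.05 without ASC HFS replicate 1. With limma-voom, chosen for this after seeing the data, the ranges were 0 to 6 members and 0 to 50 pathway genes in AD (37 without AD C replicate 1), and 0 to 5 members and 9 to 24 pathway genes in ASC (10 without ASC HFS replicate 2). Limma-voom with all libraries called 5 members and 22.3% of all genes in ASC, against 3 and 19.1% with limma-trend. With the HFS pair averaged as 1 library, added after seeing the data, 0 members and 0 pathway genes were called in ASC. The number of members past 2-fold between diets was 1 to 3 in AD and 1 to 4 in ASC with 1 library left out, against 1 and 3. The number of members without overlap by stage was 6 to 7, against 6. The number without overlap between diets, recomputed after seeing the data, was 6 to 8 in AD and 7 to 8 in ASC with 1 library left out, against 6 and 7, and 6 and 5 as RPM. With all libraries, 12.2% of all genes passed 2-fold in AD and 40.7% in ASC, and 47.7% and 61% did not overlap between diets as normalized counts. As RPM, 22.7% were higher and 25.4% lower in HFS without overlap in AD, and 23.5% and 39.0% in ASC. By stage, 41.5% of all genes did not overlap. These shares were not recomputed with 1 library left out, where lack of overlap is easier for every gene. Nothing is read from those counts or from the calls with 1 library left out.

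The replicate numbers were not taken as pairs, and same-numbered deviations had a correlation of 0.00141 in AD and -0.123 in ASC. These correlations cannot exclude pairing, since the HFS replicates differed far less than the C replicates. The chi-square per gene was 7.2 against 319 in AD and 8.04 against 32.6 in ASC. The replicate block gave 0 called members and 1 called pathway gene in AD and 3 and 19 in ASC, against 0, 0, 3 and 18 without it. With the block the calls over all genes in AD were 661, against 244, and those in ASC 20.8% of all genes, against 19.1%. A crossed replicate block in ASC, added after seeing the data, called 5 members, 22 pathway genes and 25.4% of all genes. The cause of these shifts was not tested. Depth limits Grem1, Bmpr1a and Inhba in ASC HFS and Bmp4 in AD, which rested on 0 to 29 reads per library.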
